A study of Homo sapiens with 12 samples.

Results

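The expression of 50 genes of the DNA replication machinery was examined in 3 human gastric cancer cell lines, KATO-III, SNU-216 and SNU-601, each sorted into a CD133+ and a CD133- fraction. The genes were those of a list of replication proteins whose symbols occurred among the 34595 genes with a value on the arrays, so that all 50 had a value; the rule itself names no measured level, although earlier results of these data were known when the list was chosen. CD133 is a cell surface glycoprotein, the product of PROM1, by which stem-like cells of many tumors are sorted. The CD133+ and CD133- cells were taken from the bright and the dim end of the staining with a fluorescent CD133 antibody, and all lines were grown in the same serum-containing medium with no other treatment. Each of the 6 populations was measured on 2 Illumina bead arrays, and each line stands for a single tumor-derived culture. The labels do not say whether the arrays of a population came from separate sorts, so the p-values below measure only the spread between these arrays, which may be technical. The design text names another SNU line in place of SNU-216, and the sample labels were followed here.

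Replication starts at origins that are bound by the origin recognition complex (ORC), where CDC6 and CDT1 load the ring-shaped MCM2-7 helicase during G1 phase. In S phase the kinase CDC7 with DBF4, together with CDC45, the GINS complex and MCM10, turns the loaded helicase into a moving fork. DNA polymerase alpha with its primase starts each strand, replication factor C (RFC) loads the sliding clamp PCNA, and polymerases delta and epsilon extend the DNA, while the histone chaperones CAF-1, ASF1 and NASP rebuild chromatin behind the fork. Many of these genes are transcribed under E2F factors at the passage from G1 into S phase, and their levels are high in dividing epithelial and cancer cells.

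The values were background-subtracted and quantile-normalized intensities, 1 per gene symbol and array, on a linear scale. Before log2 was taken, readings under 32.7 were raised to that floor, which equals the 1st percentile of the table without its sign. Genes exceeding it on 2 or more arrays, 20147 in all, entered the tests. Of the 50 replication genes, 49 were among them. CASP8AP2, which takes part in histone gene transcription, was not above the floor on any array, and it has no change here. The sort marker behaved as its labels say: the PROM1 intensity was 9513 and 8847 on the CD133+ arrays of KATO-III and 4056 and 4493 on its CD133- arrays, 9273 and 8773 against 2232 and 2219 in SNU-216, and 4877 and 4677 against 1315 and 1324 in SNU-601. Its CD133+ arrays lay above its CD133- arrays in each line. The arrays of a population correlated at r = 0.993 to 0.995 over all genes, and precision is limited by how few arrays there are. Of 8 epithelial markers, 7 were above the floor on all 12 arrays, KRT20 being the exception, and of 11 markers of leukocyte, endothelial and fibroblast cells 6 were not above it on any array (PTPRC, CD3E, PECAM1, VWF, COL3A1 and DCN).

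Replication genes were more often higher than lower in CD133+ cells in all 3 lines, and most often in KATO-III. A gene is called higher or lower here where the adjusted p of limma, corrected over all tested genes by Benjamini-Hochberg, was below 0.05. In KATO-III 33 of the 49 genes were higher and 4 were lower in CD133+ cells, against 18.7% and 20.6% of all tested genes, and the median log2 change of the replication genes was 0.39. In SNU-216 22 were higher and 4 lower, against 14.6% and 14% of all genes, with a median of 0.23. In SNU-601 21 were higher and 0 were lower, against 8.59% and 7.78%, with a median of 0.18. At an unadjusted p below 0.05, 0 replication genes were lower there, against 2903 of all 20147 tested genes. The arrays measured RNA of sorted cell pools, in which a larger share of cells in S phase and more RNA per cell cannot be told apart. Leaving out 1 array at a time gave 28 to 34, 15 to 22 and 17 to 22 higher genes in the 3 lines. With only the 4 arrays of the line in the fit, 8 genes were higher in SNU-216 and 1 was higher in SNU-601.

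**Figure D1:**
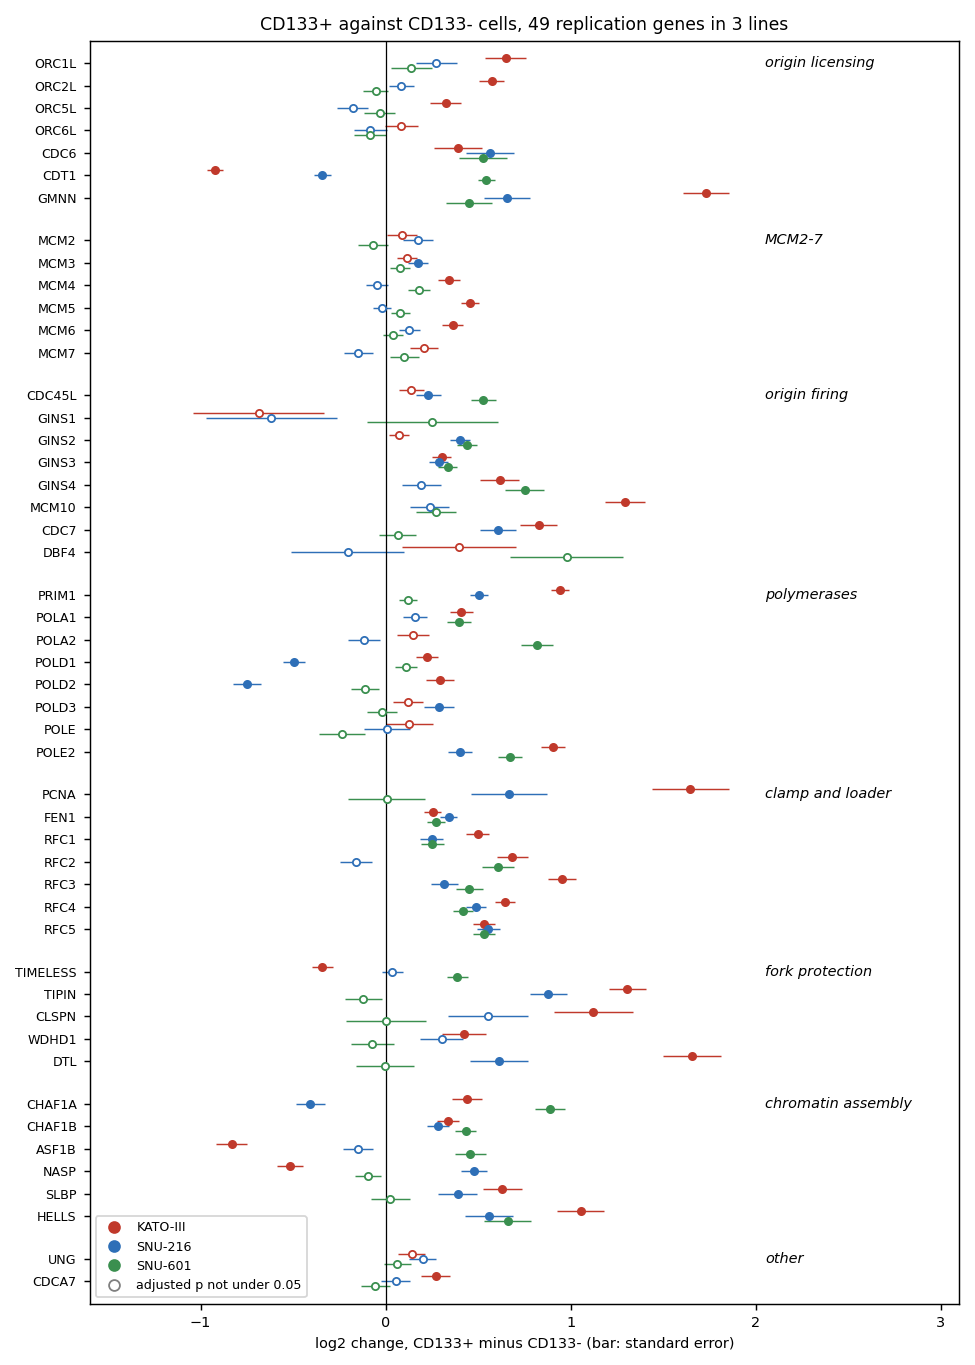
Log2 change of CD133+ against CD133- cells (horizontal axis) for each replication gene (vertical axis, grouped by role) in KATO-III, SNU-216 and SNU-601. Filled symbols mark genes called at an adjusted p below 0.05 in that line, 37 in KATO-III, 26 in SNU-216 and 21 in SNU-601, open symbols mark the others, and bars give the standard error. Most points lie to the right of 0.

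Direction was shared by part of the list only. A positive change in all 3 lines was found for 24 genes, against 10.1% of all tested genes, and 0 were negative in all 3, against 12.4%. Both CD133+ arrays lay above both CD133- arrays in each line for 18 genes, against 3.25% of all genes. By call, CDC6, GMNN, GINS3, POLE2, FEN1, RFC1, RFC3, RFC4, RFC5, CHAF1B and HELLS, 11 in all, were called higher in every line, against 0.63% of all genes. Leaving out 1 array at a time kept 7 to 10 of these 11, with 7 without SNU-216 CD133- replicate 2 or SNU-601 CD133- replicate 1, and 0 were called in every line with only the 4 arrays of the line in each fit. A call of higher in at least 2 lines was made for 23 genes, against 7.44% of all genes. Opposed calls, higher in at least 1 line and lower in another, were made for 7 genes, against 10.9% of all genes. These were CDT1, POLD1, POLD2, TIMELESS, CHAF1A, ASF1B and NASP, and CHAF1A is also among the 23. A further 7 (ORC6L, MCM2, MCM7, GINS1, DBF4, POLE and UNG) were called in no line, against 43.8%.

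The sliding clamp and its loader, with the flap endonuclease FEN1, had the highest share of higher genes among the 8 roles in every line. All 7 of these genes were higher in CD133+ cells of KATO-III, 6 of 7 in SNU-216 and 6 of 7 in SNU-601. The shares of all tested genes called higher were 18.7%, 14.6% and 8.59% in the same order of lines. RFC5, a small subunit of the clamp loader, read 2657 and 2705 on the CD133+ arrays of KATO-III and 1809.6 and 1904 on its CD133- arrays, 2142 and 2024 against 1472 and 1365 in SNU-216, and 2443 and 2230.1 against 1588 and 1641 in SNU-601. The lowest CD133+ reading of RFC5, in SNU-216, lay above its highest CD133- reading, in KATO-III, so that the fractions did not overlap even across lines; RFC5 was the single replication gene of which this was true, against 0.323% of all genes. The RFC5 changes were 0.53 ± 0.061, 0.56 ± 0.061 and 0.53 ± 0.061 (adjusted p = 1.56e-04, 2.32e-04 and 8.94e-04) in KATO-III, SNU-216 and SNU-601, where each value is a log2 change of CD133+ over CD133- cells with its standard error. RFC4, another small subunit, read 9482 and 9506 on the CD133+ arrays of KATO-III and 6123 and 6016 on its CD133- arrays, 8227 and 8329 against 5765 and 6055 in SNU-216, and 5047 and 4934 against 3947 and 3534 in SNU-601. The RFC4 changes were 0.65 ± 0.053, 0.49 ± 0.053 and 0.42 ± 0.053 (adjusted p = 2.61e-05, 2.40e-04 and 0.00142) in the same order of lines. In every line the CD133+ arrays of RFC4 exceeded the CD133- arrays, while its SNU-601 CD133+ arrays lay below the CD133- arrays of the other lines.

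RFC3, also a loader subunit, read 1707 and 1809 on the CD133+ arrays of KATO-III and 955 and 863 on its CD133- arrays, 1140.4 and 1097 against 927 and 870.3 in SNU-216, and 369 and 408 against 280.5 and 288 in SNU-601. The RFC3 changes were 0.95 ± 0.074, 0.32 ± 0.074 and 0.45 ± 0.074 (adjusted p = 1.81e-05, 0.0114 and 0.00419), the one in KATO-III exceeding that in SNU-216 by 0.64 ± 0.10, adjusted p = 0.00174. RFC1, the large subunit that bends around the clamp, read 1151 and 1213 on the CD133+ arrays of KATO-III and 851 and 822 on its CD133- arrays, 1440.0 and 1488 against 1292 and 1174 in SNU-216, and 1108 and 1025 against 888 and 901 in SNU-601. The RFC1 changes were 0.50 ± 0.063, 0.25 ± 0.063 and 0.25 ± 0.063 (adjusted p = 2.71e-04, 0.0162 and 0.0256). FEN1, which trims the flaps of Okazaki fragments, read 7712 and 7661 on the CD133+ arrays of KATO-III and 6438 and 6450.4 on its CD133- arrays, 8237 and 7982 against 6181 and 6639 in SNU-216, and 4649.5 and 4956 against 3967 and 3978 in SNU-601. The FEN1 changes were 0.25 ± 0.047, 0.34 ± 0.047 and 0.27 ± 0.047 (adjusted p = 0.00250, 7.97e-04 and 0.00538), and its fractions did not overlap within any line. RFC2 was higher in KATO-III (0.68 ± 0.086, adjusted p = 2.68e-04) and SNU-601 (0.61 ± 0.086, adjusted p = 0.00219), and its value in SNU-216 was -0.16 ± 0.086, adjusted p = 0.222. The RFC1 call was lost in SNU-216 without SNU-216 CD133+ replicate 2 or SNU-216 CD133- replicate 2 (changes of 0.18 to 0.32, adjusted p up to 0.0960, over the 12 fits that each left out 1 array) and in SNU-601 without SNU-601 CD133+ replicate 1 or either SNU-601 CD133- array (0.20 to 0.31, adjusted p up to 0.135). The RFC3 call was lost in SNU-216 without SNU-216 CD133+ replicate 1 or SNU-216 CD133- replicate 2 (0.27 to 0.36, adjusted p up to 0.0723).

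PCNA, the clamp itself and a common marker of proliferating cells, differed between the lines. Its intensity was 2467 and 1856 on the CD133+ arrays of KATO-III and 785 and 595 on its CD133- arrays, 2627 and 2038 against 1345 and 1577 in SNU-216, and 538 and 424 against 525 and 431 in SNU-601. In KATO-III the CD133+ readings lay far above the CD133- readings, in SNU-216 they were higher with a wide gap between the CD133+ arrays, and in SNU-601 the fractions overlapped. The PCNA changes were 1.65 ± 0.21, 0.67 ± 0.21 and 0.0053 ± 0.21 (adjusted p = 2.65e-04, 0.0397 and 1.00). The KATO-III change exceeded the SNU-601 change by 1.64 ± 0.29, adjusted p = 0.00288, and it exceeded the SNU-216 change by 0.98 ± 0.29, adjusted p = 0.0312. The PCNA call in SNU-216 was lost without either KATO-III CD133+ array, any SNU-216 array or either SNU-601 CD133- array (changes of 0.48 to 0.85, adjusted p up to 0.244, over the 12 fits that each left out 1 array).

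**Figure D2:**
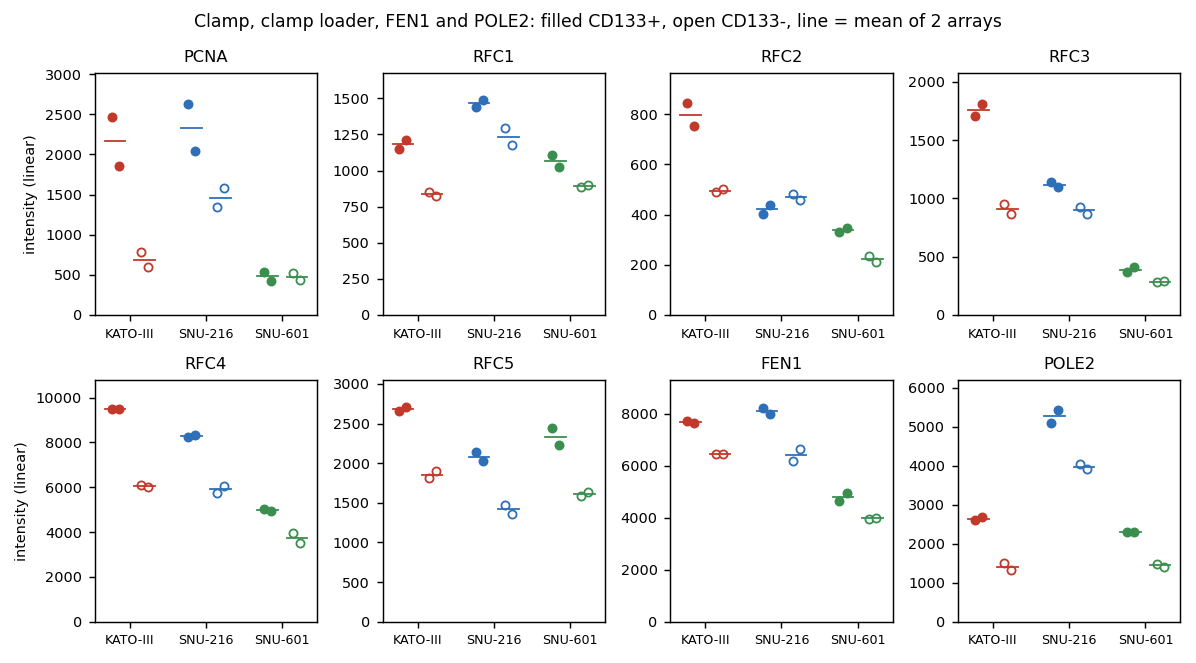
Intensity on a linear axis (vertical) of the clamp PCNA, the loader subunits RFC1 to RFC5, FEN1 and POLE2 on each of the 12 arrays, by line (horizontal); filled points are CD133+ and open points CD133- arrays, and a line marks the mean of each pair. POLE2 is shown beside them as a gene that was higher in every line. The RFC5 pairs are separate in every line, and the PCNA pairs are far apart in KATO-III and overlap in SNU-601.

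Since E2F factors act on many of these genes, the promoters of the 50 genes were searched for E2F octamers in the RefSeq table of GRCh38.p14, which gives 250 bases before and 50 after each gene's start. A window was found for 46 of the genes; none was found for MCM4, MCM5, GINS4 and POLD3. The octamers TTTCCCGC, TTTCGCGC, TTTGCCGC and TTTGGCGC were searched on both strands, and TTTGGCGC can overlap the reverse complement of TTTCGCGC. One or more was present in 24 of the 46 windows (52.2%), against 3.99% of the windows of 27305 genes. The motif CCAAT was present in 63.0% of the 46 windows against 39.7% of all, and TTTGAA, the core of the CHR element of mitotic genes, in 6.52% against 18.2%. The median change was 0.36 with and 0.41 without an octamer in KATO-III, 0.29 and 0.23 in SNU-216, and 0.10 and 0.26 in SNU-601. A match is a run of letters and not a measured binding site. The 200 bases before the start are given here for a clamp gene and a loader gene whose change differed between lines and for 1 whose change did not pass that test, with octamers in capitals: PCNA (chr20:5126623-5126822, minus strand) and RFC3 (chr13:33817949-33818148, plus strand) hold 1 each, at -59 and -55 from the start, and RFC5 (chr12:118016503-118016702, plus strand), which was higher in every line by about the same amount, holds none. These genes do not stand for the list. RFC2, whose change also differed between lines (adjusted p = 9.18e-04), has no octamer in its window. PRIM1, CHAF1A and POLD2 likewise passed the test of a difference between lines and have none. CDC6, GINS3 and HELLS have an octamer and did not pass it, while GMNN, DTL and TIPIN have an octamer and passed. A link of octamer and change was not tested.
PCNA: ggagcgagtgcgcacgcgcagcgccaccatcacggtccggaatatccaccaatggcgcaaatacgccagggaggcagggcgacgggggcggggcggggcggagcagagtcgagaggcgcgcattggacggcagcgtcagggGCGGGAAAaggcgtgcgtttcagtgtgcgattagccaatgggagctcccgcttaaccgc
RFC3: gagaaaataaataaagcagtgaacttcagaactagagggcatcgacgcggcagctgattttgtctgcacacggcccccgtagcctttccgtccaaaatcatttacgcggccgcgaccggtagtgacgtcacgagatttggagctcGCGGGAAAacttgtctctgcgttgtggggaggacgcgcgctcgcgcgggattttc
RFC5: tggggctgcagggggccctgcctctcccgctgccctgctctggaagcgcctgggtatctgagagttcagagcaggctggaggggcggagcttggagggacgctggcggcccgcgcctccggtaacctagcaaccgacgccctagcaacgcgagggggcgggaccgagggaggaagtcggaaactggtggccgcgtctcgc

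The MCM2-7 helicase genes, had fewer calls than the clamp and its loader. None of the 6 was called in SNU-601, only MCM3 was called in SNU-216, and MCM4, MCM5 and MCM6 were higher in KATO-III. These shares of higher genes, 0%, 16.7% and 50%, stand beside 8.59%, 14.6% and 18.7% of all tested genes, so that the SNU-216 share is near the background. MCM4 read 7072 and 7511 on the CD133+ arrays of KATO-III and 5659.7 and 5822 on its CD133- arrays, 8564 and 9006 against 9220.0 and 8910.1 in SNU-216, and 3305 and 3492 against 2858 and 3152 in SNU-601. MCM5 read 3951 and 4065 on the CD133+ arrays of KATO-III and 2971 and 2872 on its CD133- arrays, 3777 and 4045 against 3840.0 and 4090.2 in SNU-216, and 1754 and 1709.7 against 1669.8 and 1607 in SNU-601. MCM6 read 8161 and 7761 on the CD133+ arrays of KATO-III and 6352 and 6031 on its CD133- arrays, 11153 and 12083 against 10607 and 10627 in SNU-216, and 5791 and 5820.0 against 5423 and 5878 in SNU-601. For all 3 of these genes the KATO-III fractions were separate, and at least 1 of the SNU lines showed overlapping fractions. The MCM4 changes were 0.34 ± 0.059, -0.046 ± 0.059 and 0.18 ± 0.059 (adjusted p = 0.00160, 0.679 and 0.0741). The MCM5 changes were 0.46 ± 0.051, -0.020 ± 0.051 and 0.080 ± 0.051 (adjusted p = 1.33e-04, 0.898 and 0.362), and the MCM6 changes were 0.36 ± 0.056, 0.13 ± 0.056 and 0.040 ± 0.056 (adjusted p = 9.26e-04, 0.131 and 0.754). The change of MCM5 was larger in KATO-III than in SNU-216 by 0.48 ± 0.072, adjusted p = 0.00111, and larger than in SNU-601 by 0.38 ± 0.072, adjusted p = 0.00414.

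MCM3 read 10661 and 10543 on the CD133+ arrays of KATO-III and 9874 and 9683 on its CD133- arrays, 9113 and 8542 against 7576 and 8062 in SNU-216, and 7995 and 8673 against 7959 and 7808 in SNU-601. The CD133+ arrays of MCM3 lay above the CD133- arrays in each line, by small margins, and its changes were 0.12 ± 0.054, 0.18 ± 0.054 and 0.079 ± 0.054 (adjusted p = 0.124, 0.0385 and 0.400). The MCM3 call in SNU-216 was lost without any KATO-III array, SNU-216 CD133+ replicate 1, SNU-216 CD133- replicate 1 or either SNU-601 CD133- array (changes of 0.13 to 0.22, adjusted p up to 0.200, over the 12 fits that each left out 1 array). MCM2 read 5151 and 5870.2 on the CD133+ arrays of KATO-III and 5004 and 5341 on its CD133- arrays, 7876 and 8701 against 7404 and 7271 in SNU-216, and 2838 and 3098 against 2968 and 3258 in SNU-601. MCM7 read 5804 and 5215 on the CD133+ arrays of KATO-III and 4719 and 4811 on its CD133- arrays, 5181 and 4533 against 5456 and 5284 in SNU-216, and 4715 and 4802 against 4208 and 4676 in SNU-601. MCM2 overlapped between fractions in KATO-III and SNU-601, whereas the CD133+ arrays of MCM7 were above in KATO-III and SNU-601 and below in SNU-216. The MCM2 changes were 0.089 ± 0.082, 0.17 ± 0.082 and -0.069 ± 0.082 (adjusted p = 0.459, 0.161 and 0.691). The MCM7 changes were 0.21 ± 0.078, -0.15 ± 0.078 and 0.10 ± 0.078 (adjusted p = 0.0640, 0.211 and 0.467). Promoters of 3 helicase genes show how the octamers of this group are placed: MCM3 (chr6:52284743-52284942, minus strand) holds 1 in these 200 bases, MCM6 (chr2:135876444-135876643, minus strand) holds 4 in 2 overlapping pairs, and MCM7 (chr7:100101398-100101597, minus strand) holds 2, the octamers in capitals.
MCM3: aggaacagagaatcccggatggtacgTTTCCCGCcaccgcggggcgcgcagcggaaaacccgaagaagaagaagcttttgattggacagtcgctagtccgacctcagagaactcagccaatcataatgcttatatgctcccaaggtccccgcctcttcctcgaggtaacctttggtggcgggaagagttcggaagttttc
MCM6: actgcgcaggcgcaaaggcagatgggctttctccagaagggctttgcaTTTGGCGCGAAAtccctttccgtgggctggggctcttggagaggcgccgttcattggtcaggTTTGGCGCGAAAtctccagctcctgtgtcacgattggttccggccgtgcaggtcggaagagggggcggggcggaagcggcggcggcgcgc
MCM7: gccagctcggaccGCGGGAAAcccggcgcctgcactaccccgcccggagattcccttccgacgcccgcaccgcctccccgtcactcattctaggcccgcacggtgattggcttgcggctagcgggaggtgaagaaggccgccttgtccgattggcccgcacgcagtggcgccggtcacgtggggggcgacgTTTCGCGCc

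**Figure D3:**
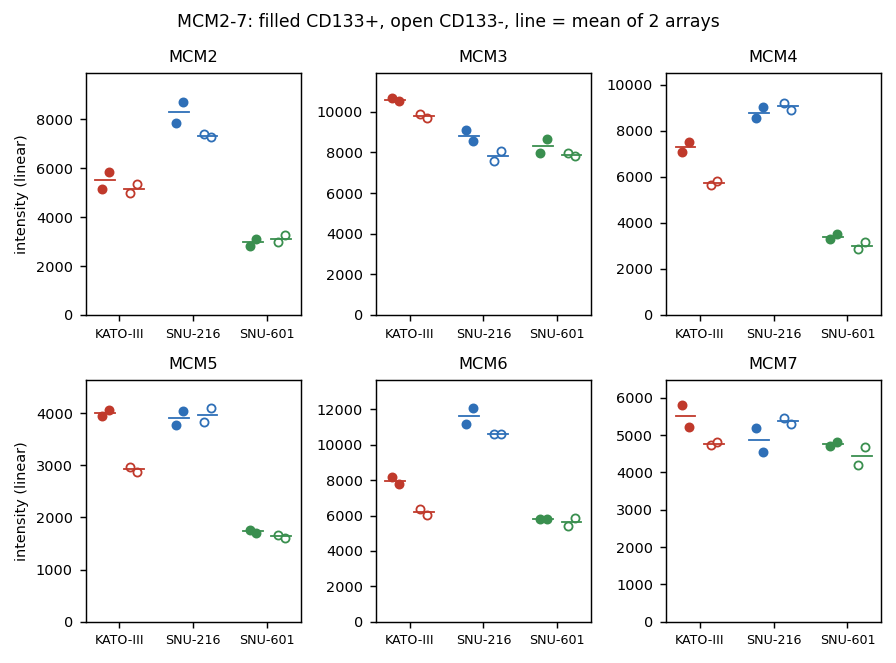
Intensity on a linear axis (vertical) of MCM2 to MCM7 on each of the 12 arrays, by line (horizontal); filled points are CD133+ and open points CD133- arrays, and a line marks the mean of each pair. The arrays of SNU-601 lie below those of both other lines for MCM2, MCM4, MCM5 and MCM6, and the fractions of MCM4, MCM5 and MCM6 are separate in KATO-III.

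Among the licensing genes, CDC6 and the CDT1 inhibitor geminin (GMNN) were higher in CD133+ cells of every line, and CDT1 went both ways. GMNN, which binds CDT1 and stops a fresh round of loading in S and G2 phase, read 1567 and 1905 on the CD133+ arrays of KATO-III and 575 and 472 on its CD133- arrays, 591 and 577 against 363 and 378 in SNU-216, and 452 and 394 against 293 and 326 in SNU-601. In KATO-III the GMNN readings of CD133+ cells were about 3.32-fold those of CD133- cells on the log-scale mean, and the fractions were separate in each line. The GMNN changes were 1.73 ± 0.12, 0.66 ± 0.12 and 0.45 ± 0.12 (adjusted p = 1.24e-05, 0.00417 and 0.0399), the KATO-III change being larger than that of SNU-216 by 1.07 ± 0.18, adjusted p = 0.00176. CDT1 read 1479 and 1419.8 on the CD133+ arrays of KATO-III and 2693 and 2799 on its CD133- arrays, 2697 and 2575 against 3387 and 3297 in SNU-216, and 3201 and 3338 against 2223 and 2260.1 in SNU-601. CDT1 was thus low in CD133+ cells of KATO-III and SNU-216 and high in those of SNU-601, with no overlap in any line. The CDT1 changes were -0.92 ± 0.045, -0.34 ± 0.045 and 0.54 ± 0.045 (adjusted p = 1.70e-06, 6.10e-04 and 2.57e-04), and the KATO-III change minus the SNU-601 change was -1.47 ± 0.064, adjusted p = 3.15e-06.

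CDC6, the ATPase that loads the helicase together with CDT1, read 577 and 631 on the CD133+ arrays of KATO-III and 446 and 474 on its CD133- arrays, 368 and 424 against 239 and 299 in SNU-216, and 321 and 367 against 251 and 227 in SNU-601. The fractions of CDC6 were separate in each line, and its changes were 0.39 ± 0.13, 0.56 ± 0.13 and 0.53 ± 0.13 (adjusted p = 0.0386, 0.0102 and 0.0241). The CDC6 call was lost in KATO-III without any KATO-III array or either SNU-601 CD133- array (changes of 0.33 to 0.46, adjusted p up to 0.193, over the 12 fits that each left out 1 array), in SNU-216 without SNU-216 CD133+ replicate 2 or SNU-216 CD133- replicate 1 (0.40 to 0.73, adjusted p up to 0.0767) and in SNU-601 without SNU-601 CD133+ replicate 2 or either SNU-601 CD133- array (0.43 to 0.62, adjusted p up to 0.133). The GMNN call was lost in SNU-601 without any SNU-216 array or any SNU-601 array (0.35 to 0.55, adjusted p up to 0.204). Of the 4 ORC subunits on the list, ORC1L (0.65 ± 0.11, adjusted p = 0.00158), ORC2L (0.57 ± 0.068, adjusted p = 1.83e-04) and ORC5L (0.33 ± 0.084, adjusted p = 0.0135) were higher in CD133+ cells of KATO-III, and none of the 4 was called in SNU-216 or SNU-601. The ORC5L call was lost without KATO-III CD133+ replicate 2 or KATO-III CD133- replicate 1 (0.22 to 0.43, adjusted p up to 0.0941). The ORC6L changes were 0.085 ± 0.089, -0.082 ± 0.089 and -0.085 ± 0.089 (adjusted p = 0.523, 0.598 and 0.633).

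The genes that fire origins were higher in 4 of 8 cases in each line, and GINS3 was the only one called in all of them. Of all tested genes, 18.7%, 14.6% and 8.59% were higher in KATO-III, SNU-216 and SNU-601. GINS3, a subunit of the GINS complex that travels with the helicase, read 2430.0 and 2359.9 on the CD133+ arrays of KATO-III and 1871 and 2015 on its CD133- arrays, 1479.9 and 1433 against 1225 and 1163 in SNU-216, and 1631 and 1596 against 1296 and 1262 in SNU-601. GINS2, its partner subunit, read 7368 and 7675 on the CD133+ arrays of KATO-III and 7139 and 7174 on its CD133- arrays, 7818 and 8356 against 6098 and 6128 in SNU-216, and 3757 and 4107 against 2951 and 2844 in SNU-601. GINS3 was separate by a like margin in every line, and GINS2 by a wider margin in the SNU lines than in KATO-III. The GINS3 changes were 0.30 ± 0.051, 0.29 ± 0.051 and 0.34 ± 0.051 (adjusted p = 0.00141, 0.00289 and 0.00290). The GINS2 changes were 0.071 ± 0.053, 0.40 ± 0.053 and 0.44 ± 0.053 (adjusted p = 0.349, 6.25e-04 and 0.00115). GINS4 read 961 and 954 on the CD133+ arrays of KATO-III and 575 and 677 on its CD133- arrays, 2260.1 and 2374 against 2001 and 2057 in SNU-216, and 504 and 419.6 against 257 and 291 in SNU-601. CDC45L, the gene of CDC45, read 6680.0 and 6773 on the CD133+ arrays of KATO-III and 6243 and 5988 on its CD133- arrays, 7518 and 8509.6 against 6923 and 6713 in SNU-216, and 4056 and 4159.6 against 2707 and 3000.2 in SNU-601. Both were separate in every line, and CDC45L most widely in SNU-601. The GINS4 changes were 0.62 ± 0.11, 0.19 ± 0.11 and 0.75 ± 0.11 (adjusted p = 0.00159, 0.235 and 0.00210). The CDC45L changes were 0.14 ± 0.067, 0.23 ± 0.067 and 0.53 ± 0.067 (adjusted p = 0.147, 0.0311 and 0.00139). The CDC45L call was lost in SNU-216 without either KATO-III CD133+ array, SNU-216 CD133+ replicate 2 or either SNU-216 CD133- array (changes of 0.14 to 0.32, adjusted p up to 0.186, over the 12 fits that each left out 1 array).

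CDC7, the kinase that phosphorylates the loaded helicase, read 1259 and 1260.0 on the CD133+ arrays of KATO-III and 663 and 760.0 on its CD133- arrays, 368 and 382 against 229.9 and 263 in SNU-216, and 730.3 and 625 against 640.3 and 652 in SNU-601. CDC7 was separate in KATO-III and SNU-216 and overlapped in SNU-601, and its changes were 0.83 ± 0.099, 0.61 ± 0.099 and 0.064 ± 0.099 (adjusted p = 1.99e-04, 0.00186 and 0.788). The KATO-III change of CDC7 was larger than that of SNU-601 by 0.76 ± 0.14, adjusted p = 0.00335. MCM10, which helps the helicase to open the origin, was higher in KATO-III alone by call (1.29 ± 0.11, adjusted p = 2.62e-05), with changes of 0.24 in SNU-216 (adjusted p = 0.143) and 0.27 in SNU-601 (adjusted p = 0.131), and the KATO-III change exceeded both, by 1.06 ± 0.15, adjusted p = 8.60e-04, and by 1.02 ± 0.15, adjusted p = 0.00114. DBF4, the activating subunit of CDC7, and GINS1 lay near the floor, between 31.2 and 95.7 for DBF4, and were not called in any line.

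Of the polymerase genes, POLE2, the second subunit of polymerase epsilon, was the one that was higher in all lines. It read 2596 and 2678 on the CD133+ arrays of KATO-III and 1503 and 1322 on its CD133- arrays, 5098 and 5427 against 4047 and 3907 in SNU-216, and 2311 and 2299 against 1489.8 and 1405 in SNU-601. The POLE2 changes were 0.90 ± 0.065, 0.40 ± 0.065 and 0.67 ± 0.065 (adjusted p = 1.19e-05, 0.00172 and 4.31e-04), and the fractions were separate in each line. PRIM1, the catalytic primase subunit, read 5365 and 4914 on the CD133+ arrays of KATO-III and 2638 and 2702 on its CD133- arrays, 3349 and 3351 against 2337 and 2389.5 in SNU-216, and 2309 and 2391 against 2162 and 2159 in SNU-601. POLA1, the catalytic subunit of polymerase alpha, read 2737 and 2824 on the CD133+ arrays of KATO-III and 2192 and 2001 on its CD133- arrays, 1590.3 and 1569 against 1441 and 1390.1 in SNU-216, and 769 and 844 against 629 and 595 in SNU-601. Both were separate in every line, PRIM1 by a declining margin from KATO-III to SNU-216 to SNU-601. The PRIM1 changes were 0.94 ± 0.047, 0.50 ± 0.047 and 0.12 ± 0.047 (adjusted p = 1.79e-06, 1.05e-04 and 0.128). The POLA1 changes were 0.41 ± 0.063, 0.16 ± 0.063 and 0.40 ± 0.063 (adjusted p = 9.18e-04, 0.0998 and 0.00379). The KATO-III change of PRIM1 was larger than that of SNU-216 by 0.44 ± 0.067, adjusted p = 0.00118, which in turn was larger than that of SNU-601 by 0.38 ± 0.067, adjusted p = 0.00289.

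POLA2, the accessory subunit of polymerase alpha, read 3781 and 3401 on the CD133+ arrays of KATO-III and 3237 and 3236 on its CD133- arrays, 3914 and 4106 against 4297 and 4411 in SNU-216, and 2802 and 2297 against 1458 and 1424 in SNU-601. POLA2 stood out in SNU-601, where the change exceeded that in KATO-III, and its changes were 0.15 ± 0.087, -0.12 ± 0.087 and 0.82 ± 0.087 (adjusted p = 0.228, 0.385 and 6.91e-04), the KATO-III change minus the SNU-601 change being -0.67 ± 0.12, adjusted p = 0.00337. Of the delta subunits, POLD1 and POLD2 were lower in CD133+ cells of SNU-216. POLD1, the catalytic subunit of polymerase delta, read 996 and 960.0 on the CD133+ arrays of KATO-III and 829 and 843 on its CD133- arrays, 986 and 1018 against 1479 and 1347 in SNU-216, and 585 and 618 against 563 and 550.5 in SNU-601. POLD2, its second subunit, read 3441 and 3977 on the CD133+ arrays of KATO-III and 3089 and 2942 on its CD133- arrays, 2225 and 2319 against 3796 and 3831 in SNU-216, and 1629 and 1646 against 1669 and 1878 in SNU-601. CD133+ cells were lower than CD133- cells for both in SNU-216 and higher in KATO-III, with no overlap in either line. The POLD1 changes were 0.23 ± 0.059, -0.49 ± 0.059 and 0.11 ± 0.059 (adjusted p = 0.0146, 3.72e-04 and 0.267). The POLD2 changes were 0.30 ± 0.076, -0.75 ± 0.076 and -0.11 ± 0.076 (adjusted p = 0.0134, 1.55e-04 and 0.396). KATO-III and SNU-216 differed by 0.72 ± 0.084, adjusted p = 2.68e-04 for POLD1 and by 1.04 ± 0.11, adjusted p = 1.43e-04 for POLD2. The KATO-III calls were lost for POLD1 without KATO-III CD133+ replicate 1 or KATO-III CD133- replicate 1 (changes of 0.20 to 0.25, adjusted p up to 0.0673, over the 12 fits that each left out 1 array) and for POLD2 without KATO-III CD133+ replicate 2 or KATO-III CD133- replicate 2 (0.19 to 0.40, adjusted p up to 0.0889). POLD3 was higher in SNU-216 (0.29 ± 0.081, adjusted p = 0.0272), a call that was lost without either SNU-216 CD133+ array or SNU-216 CD133- replicate 1 (0.24 to 0.34, adjusted p up to 0.135), and POLE, the catalytic subunit of polymerase epsilon, had changes of 0.13 ± 0.12, 0.0063 ± 0.12 and -0.23 ± 0.12 (adjusted p = 0.485, 1.00 and 0.268).

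The genes that protect the moving fork split the lines. DTL, the receptor by which the CRL4 ubiquitin ligase recognizes proteins on PCNA, read 597 and 647 on the CD133+ arrays of KATO-III and 166 and 235 on its CD133- arrays, 341 and 407 against 232 and 255 in SNU-216, and 220.2 and 225 against 225 and 221 in SNU-601. TIPIN, which with TIMELESS holds the helicase and polymerases together, read 1078 and 1027 on the CD133+ arrays of KATO-III and 445 and 406 on its CD133- arrays, 755 and 859.8 against 447 and 429 in SNU-216, and 173 and 187 against 181 and 211 in SNU-601. TIMELESS read 2744 and 2732 on the CD133+ arrays of KATO-III and 3505 and 3436 on its CD133- arrays, 3753 and 3913 against 3510.0 and 3978 in SNU-216, and 3145 and 3175 against 2419 and 2410.1 in SNU-601. DTL and TIPIN were high in CD133+ cells of KATO-III and SNU-216 and overlapped in SNU-601, and TIMELESS was low in CD133+ cells of KATO-III and high in those of SNU-601. The DTL changes were 1.66 ± 0.16, 0.61 ± 0.16 and -0.0026 ± 0.16 (adjusted p = 5.78e-05, 0.0183 and 1.00). The TIPIN changes were 1.31 ± 0.10, 0.88 ± 0.10 and -0.12 ± 0.10 (adjusted p = 1.75e-05, 2.95e-04 and 0.509). The TIMELESS changes were -0.34 ± 0.056, 0.036 ± 0.056 and 0.39 ± 0.056 (adjusted p = 0.00129, 0.751 and 0.00242). The KATO-III change minus the SNU-601 change was 1.66 ± 0.22, adjusted p = 6.85e-04, for DTL, 1.43 ± 0.14, adjusted p = 1.40e-04, for TIPIN and -0.73 ± 0.080, adjusted p = 2.26e-04, for TIMELESS. The DTL call in SNU-216 was lost without SNU-216 CD133+ replicate 2 or either SNU-216 CD133- array (changes of 0.49 to 0.74, adjusted p up to 0.124, over the 12 fits that each left out 1 array). CLSPN, a checkpoint mediator at the fork, was higher in KATO-III (1.12 ± 0.22, adjusted p = 0.00305) at intensities of 67.6 and 80.1 against 33.9 and 33.7, close to the floor, and it was below the floor on all 4 SNU-601 arrays. WDHD1, which links the helicase to polymerase alpha, was called in KATO-III (0.42 ± 0.12, adjusted p = 0.0184), a call lost without KATO-III CD133+ replicate 2 or KATO-III CD133- replicate 1 (0.38 to 0.46, adjusted p up to 0.0811).

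Chromatin genes held both shared and opposed changes. CHAF1B, the middle subunit of the chaperone CAF-1, read 1704 and 1626 on the CD133+ arrays of KATO-III and 1308 and 1325 on its CD133- arrays, 2132 and 2259 against 1848 and 1757 in SNU-216, and 1337 and 1477 against 1028 and 1056 in SNU-601. CHAF1A, its large subunit, read 365 and 335 on the CD133+ arrays of KATO-III and 276 and 241 on its CD133- arrays, 743 and 772 against 992 and 1017 in SNU-216, and 547 and 544 against 301 and 288 in SNU-601. CHAF1B was higher in CD133+ cells of each line, whereas CHAF1A was higher in KATO-III and SNU-601 and lower in SNU-216, again with no overlap within a line. The CHAF1B changes were 0.34 ± 0.059, 0.28 ± 0.059 and 0.43 ± 0.059 (adjusted p = 0.00180, 0.00662 and 0.00190). The CHAF1A changes were 0.44 ± 0.079, -0.41 ± 0.079 and 0.89 ± 0.079 (adjusted p = 0.00214, 0.00478 and 3.37e-04), and the CHAF1A change in SNU-216 minus that in SNU-601 was -1.30 ± 0.11, adjusted p = 9.10e-05. HELLS, a helicase of the SNF2 family that acts in DNA methylation, read 760.3 and 903 on the CD133+ arrays of KATO-III and 399 and 399 on its CD133- arrays, 1059.9 and 866 against 672 and 629.6 in SNU-216, and 210.0 and 239 against 132 and 153 in SNU-601. The HELLS changes were 1.05 ± 0.13, 0.56 ± 0.13 and 0.66 ± 0.13 (adjusted p = 2.21e-04, 0.0105 and 0.00922), with separate fractions in each line. The HELLS call was lost in SNU-216 without SNU-216 CD133+ replicate 1 or SNU-216 CD133- replicate 2 (changes of 0.41 to 0.70, adjusted p up to 0.0833, over the 12 fits that each left out 1 array) and in SNU-601 without SNU-601 CD133+ replicate 2 or SNU-601 CD133- replicate 1 (0.55 to 0.76, adjusted p up to 0.0627).

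ASF1B, the chaperone that hands histones H3 and H4 to CAF-1, read 1899 and 1757 on the CD133+ arrays of KATO-III and 3043 and 3474 on its CD133- arrays, 4769 and 5121 against 5391 and 5571 in SNU-216, and 4471 and 3933 against 3136 and 2971 in SNU-601. NASP, which keeps a store of the same histones, read 455 and 458 on the CD133+ arrays of KATO-III and 613 and 696 on its CD133- arrays, 509 and 492 against 367 and 351 in SNU-216, and 551 and 539 against 574 and 590.0 in SNU-601. Both were low in CD133+ cells of KATO-III, ASF1B was high in those of SNU-601 and NASP in those of SNU-216. The ASF1B changes were -0.83 ± 0.083, -0.15 ± 0.083 and 0.46 ± 0.083 (adjusted p = 7.37e-05, 0.239 and 0.00665). The NASP changes were -0.52 ± 0.071, 0.48 ± 0.071 and -0.095 ± 0.071 (adjusted p = 4.34e-04, 0.00110 and 0.453). The KATO-III change of ASF1B minus that in SNU-601 was -1.29 ± 0.12, adjusted p = 8.51e-05, and the KATO-III and SNU-216 changes of NASP also differed (adjusted p = 1.23e-04). SLBP, which binds the stem-loop of histone mRNA, was higher in KATO-III (0.63 ± 0.11, adjusted p = 0.00144) and in SNU-216 (0.39 ± 0.11, adjusted p = 0.0234), the second call being lost without SNU-216 CD133+ replicate 1 or either SNU-216 CD133- array (0.26 to 0.52, adjusted p up to 0.167). Of the remaining genes, the uracil glycosylase UNG was not called in any line, and CDCA7, a partner of HELLS, was called in KATO-III (0.27 ± 0.079, adjusted p = 0.0243), a call lost without either KATO-III CD133+ array or KATO-III CD133- replicate 2 (0.19 to 0.35, adjusted p up to 0.164).

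**Figure D4:**
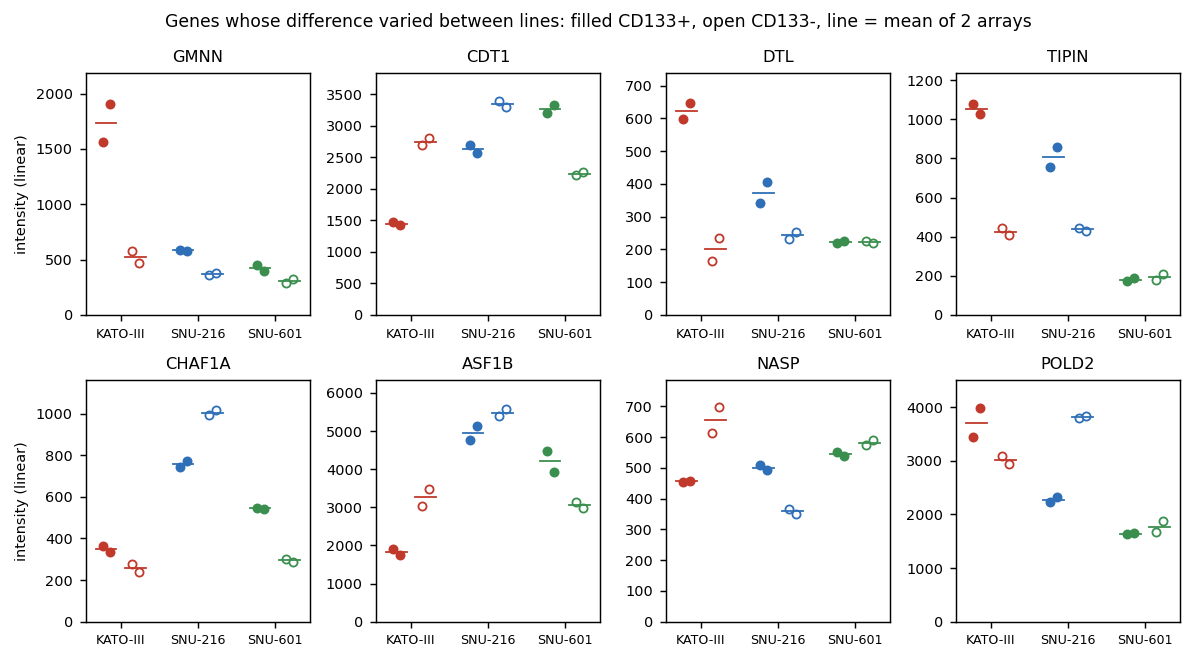
Intensity on a linear axis (vertical) on each of the 12 arrays, by line (horizontal), for 8 replication genes whose change differed between lines; filled points are CD133+ and open points CD133- arrays, and a line marks the mean of each pair. CDT1 is lower in CD133+ cells of KATO-III and SNU-216 and higher in those of SNU-601, and POLD2 is higher in KATO-III and lower in SNU-216.

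With all 12 arrays in 1 fit that kept the lines as a block, 17 replication genes had higher and 0 lower levels in CD133+ cells, against 2.62% and 2.11% of all tested genes. At an unadjusted p below 0.05, 30 were higher and 0 lower, against 2312 and 2629 of all 20147 tested genes. The 17 were CDC6, GMNN, CDC45L, GINS2, GINS3, GINS4, CDC7, PRIM1, POLA1, POLE2, FEN1, RFC1, RFC3, RFC4, RFC5, CHAF1B and HELLS. GMNN had the widest change (0.95 ± 0.19, adjusted p = 0.0233), followed by HELLS (0.76 ± 0.11, adjusted p = 0.00810) and POLE2 (0.66 ± 0.079, adjusted p = 0.00490), and RFC4 (0.52 ± 0.050, adjusted p = 0.00200) and RFC5 (0.54 ± 0.051, adjusted p = 0.00200) had the smallest adjusted p. PCNA was not called (0.77 ± 0.23, adjusted p = 0.0748). This fit takes the arrays of a population as separate samples. With the arrays of each population averaged, limma called 0 replication genes, with 9 at an unadjusted p below 0.05, all higher. Of all 20147 tested genes 992 had such a p in that fit, in either direction. A random block for the population also left 0 called, with 24 at an unadjusted p below 0.05, all higher, against 2297 of all tested genes.

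Of the 17 calls over all lines, 7 (CHAF1B, FEN1, GINS3, HELLS, POLE2, RFC4 and RFC5) held in each of the 12 fits that left out 1 array. Without KATO-III CD133+ replicate 1, 9 genes were called, without its replicate 2, 8, and without KATO-III CD133- replicate 1, 9. The call was lost for CDC6 without KATO-III CD133+ replicate 2 or KATO-III CD133- replicate 1 (0.45 to 0.53, adjusted p up to 0.0537), for GMNN without either KATO-III CD133+ array or KATO-III CD133- replicate 1 (0.81 to 1.03, adjusted p up to 0.0659), for GINS4 without either KATO-III CD133+ array or KATO-III CD133- replicate 1 (0.46 to 0.57, adjusted p up to 0.0643) and for RFC3 without KATO-III CD133+ replicate 1 (0.51 to 0.62, adjusted p up to 0.0506). It was lost for GINS2 without KATO-III CD133+ replicate 2 or any SNU-216 array (0.27 to 0.34, adjusted p up to 0.0597), for POLA1 without any KATO-III array (0.29 to 0.35, adjusted p up to 0.0670) and for RFC1 without any KATO-III array (0.30 to 0.36, adjusted p up to 0.0643). It was lost for CDC45L without any KATO-III array, SNU-216 CD133+ replicate 2, either SNU-216 CD133- array, either SNU-601 CD133+ array or SNU-601 CD133- replicate 2 (0.25 to 0.33, adjusted p up to 0.0710), for CDC7 without any KATO-III array, any SNU-216 array or SNU-601 CD133+ replicate 1 (0.43 to 0.58, adjusted p up to 0.108) and for PRIM1 without any KATO-III array or any SNU-216 array (0.45 to 0.58, adjusted p up to 0.0773). By the signal-to-noise ratio on linear intensities (the difference of the means of CD133+ and CD133- arrays over the sum of their SDs, lines pooled), RFC5 was the single replication gene above 1, at 1.53, against 0.558% of all genes, and 0 were below -1, against 0.402%. DTL followed at 0.86 and PRIM1 at 0.81.

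The CD133 difference itself differed between lines for 28 of the 49 genes by the F-test of the line-by-fraction interaction, against 44.4% of all tested genes. CDT1 (adjusted p = 4.58e-06), PRIM1 (adjusted p = 7.79e-05), CHAF1A (adjusted p = 9.59e-05) and ASF1B (adjusted p = 1.37e-04) had the smallest values. Across the 49 genes, which share arrays and are not independent replicates, the changes in KATO-III and SNU-216 correlated at r = 0.60, those in KATO-III and SNU-601 at r = -0.039 and those in SNU-216 and SNU-601 at r = -0.10; over all tested genes the values were 0.16, 0.12 and -0.081. PCNA, DTL, TIPIN, GMNN and PRIM1 were high in CD133+ cells of both KATO-III and SNU-216, and GMNN was also called higher in SNU-601. The 4 largest calls in SNU-601 were CHAF1A, POLA2, GINS4 and POLE2. Of these, CHAF1A, GINS4 and POLE2 were also called higher in KATO-III. In SNU-216 POLE2 was called higher and CHAF1A lower.

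Levels also differed between lines, with both fractions in the mean. SNU-601 was lower than KATO-III for 38 of the 49 genes and higher for 4, against 28.7% and 29.9% of all tested genes, with a median log2 difference of -0.64. It was lower than SNU-216 for 38 and higher for 5, against 29.4% and 27.1%, with a median of -0.69. SNU-216 was higher than KATO-III for 22 and lower for 16, against 31.7% and 30.3%, with a median of 0.062. SNU-601 lay below both other lines for 32 genes and above both for 1, POLE (0.77 ± 0.088, adjusted p = 4.87e-05 against KATO-III, and 0.30 ± 0.088, adjusted p = 0.0162 against SNU-216). SNU-216 was the highest line for 21 genes, among them MCM2, MCM4, MCM5, MCM6, GINS4, CDT1 and PCNA, and KATO-III for 14, among them GMNN, CDC7, PRIM1, POLA1, RFC3, RFC4 and RFC5. All 3 pairs of lines differed for 30 genes, and ORC2L and GINS1 were called in no pair. These patterns over 3 lines were not counted for all tested genes, so they have no background share. By pair, 62% of all tested genes were called for SNU-216 against KATO-III. The shares were 58.6% for SNU-601 against KATO-III and 56.5% for SNU-601 against SNU-216. Among 32 further symbols of replication genes, SNU-601 was lower than KATO-III for 13 and higher for 9, with a median of -0.11. Against SNU-216 it was lower for 18 of them and higher for 7, with a median of -0.48.

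GINS4 had the widest gap between lines, SNU-601 minus SNU-216 being -2.61 ± 0.075, adjusted p = 1.89e-09. HELLS (-2.15 ± 0.091, adjusted p = 2.98e-08), PCNA (-1.94 ± 0.15, adjusted p = 1.92e-06) and TIPIN (-1.66 ± 0.071, adjusted p = 3.22e-08) were also lower in SNU-601 than in SNU-216, by more than the CD133 difference of the same genes within either line. Against KATO-III, SNU-601 was lower for RFC3 (-1.93 ± 0.052, adjusted p = 2.40e-09) and for POLA1 (-1.78 ± 0.045, adjusted p = 1.49e-09). NASP and CDC7 ran the other way, lower in SNU-216 than in SNU-601, SNU-601 minus SNU-216 being 0.41 ± 0.050, adjusted p = 6.53e-05, for NASP and 1.12 ± 0.070, adjusted p = 4.96e-07, for CDC7. CLSPN, below the floor in SNU-601, was at least 1.53-fold higher in KATO-III and at least 1.92-fold higher in SNU-216, against the floor.

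Other genes of replication and of the cell cycle were set beside the 50. A list of 32 further symbols of replication genes, PRIM2 and PRIM2A counted apart, held 17 called higher and 3 called lower by CD133 fraction for KATO-III. It held 5 and 5 for SNU-216, and 9 and 1 for SNU-601. The shares higher were 53.1%, 15.6% and 28.1%, against 18.7%, 14.6% and 8.59% of all tested genes, and SNU-216, with 15.6% lower against 14%, lay near the background both ways. In KATO-III the RNase H2 subunit RNASEH2B (2.70 ± 0.26, adjusted p = 5.60e-05) and the origin subunit ORC3L (1.24 ± 0.11, adjusted p = 4.83e-05) were the highest. The polymerase delta subunit POLD4 (-0.97 ± 0.077, adjusted p = 2.14e-05) was the lowest there. RNASEH2B was lower in SNU-216 (-0.79 ± 0.26, adjusted p = 0.0483). Its SNU-216 readings were near the floor, at 56.4 and 39.1 on CD133+ arrays against 72.8 and 90.2 on CD133- arrays. Of 14 genes that supply nucleotides, 11 were higher and 0 lower in KATO-III, 6 and 1 in SNU-216, and 5 and 2 in SNU-601, which is 78.6%, 42.9% and 35.7% higher. The deoxycytidine kinase DCK rose by 0.91 ± 0.084, adjusted p = 9.95e-05 in SNU-216. RRM2, the small subunit of ribonucleotide reductase, had changes of 0.34 ± 0.078, 0.029 ± 0.078 and 0.56 ± 0.078 (adjusted p = 0.00717, 0.906 and 0.00197).

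Of 27 regulators of G1 and S phase, 6 were higher and 7 lower in KATO-III, 9 and 5 in SNU-216, and 8 and 0 in SNU-601. The KATO-III shares, 22.2% higher and 25.9% lower, were near the 18.7% and 20.6% of all tested genes, and the shares higher in SNU-216 and SNU-601 were 33.3% and 29.6%, against 14.6% and 8.59%. CDKN1A, the p21 inhibitor of cyclin-dependent kinases, was lower in CD133+ cells of KATO-III (-3.15 ± 0.092, adjusted p = 1.56e-07) and higher in those of SNU-216 (0.51 ± 0.092, adjusted p = 0.00312). E2F1 was higher in KATO-III (0.89 ± 0.26, adjusted p = 0.0238), at 143 and 137 on CD133+ arrays against 80.0 and 72.1 on CD133- arrays. E2F2 went the other way in KATO-III, at 2421 and 2878 against 4305 and 4129. E2F3 read 2844 and 2968 against 2000 and 2031 in KATO-III, and 2328 and 2377 against 3213 and 3266 in SNU-216. E2F7, a repressor of the family, was higher in SNU-216 (1.05 ± 0.12, adjusted p = 2.44e-04). Cyclin E2 (CCNE2) had changes of 0.42 ± 0.096, 0.68 ± 0.096 and 0.042 ± 0.096 (adjusted p = 0.00797, 8.63e-04 and 0.903). Of 28 genes of G2 phase and mitosis 20 were higher and 2 lower in KATO-III, 9 and 3 in SNU-216, and 22 and 1 in SNU-601, which is 71.4%, 32.1% and 78.6% higher. BUB1 (1.47 ± 0.078, adjusted p = 2.30e-06) and cyclin B1, CCNB1 (1.33 ± 0.11, adjusted p = 2.05e-05) were the highest in KATO-III, and CENPA (1.02 ± 0.082, adjusted p = 2.25e-04) in SNU-601. The proliferation antigen MKI67 had changes of -0.31 ± 0.13, -0.16 ± 0.13 and 0.012 ± 0.13 (adjusted p = 0.0788, 0.415 and 1.00).

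**Figure D5:**
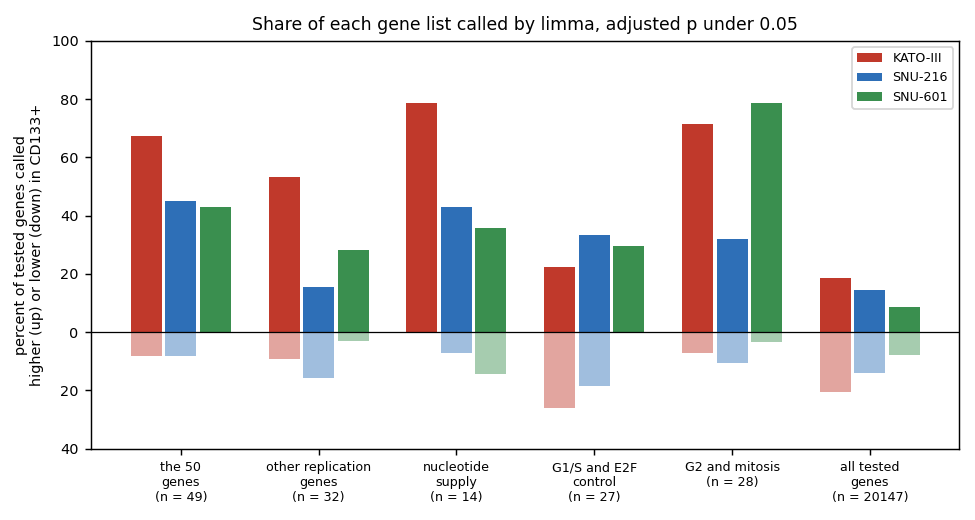
Percent of the tested genes of each list (vertical axis; n below each list on the horizontal axis) called higher (above 0) or lower (below 0) in CD133+ cells of KATO-III, SNU-216 and SNU-601, with all tested genes beside them; darker bars point up for higher and lighter bars down for lower. The replication genes stand at 67.3%, 44.9% and 42.9% higher, against 18.7%, 14.6% and 8.59% of all tested genes.

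Stress genes moved with the KATO-III result: of 12 stress and immediate early genes 9 (75%) were lower in CD133+ cells of KATO-III, against 20.6% of all tested genes. They were led by FOSB (-2.75 ± 0.048, adjusted p = 9.95e-09) and DUSP1 (-1.79 ± 0.078, adjusted p = 1.13e-06). The summed intensity of the list was 26488 to 27453 on the CD133+ arrays of KATO-III and 46082 to 46521 on its CD133- arrays. The sums were 31649 to 32309 against 30398 to 32115 in SNU-216, and 43851 to 43931 against 45459 to 46441 in SNU-601. Their part in the result was not tested. Among the markers of other cell types, the macrophage-linked CD68 was lower in CD133+ cells of all 3 lines, with changes of -1.36 ± 0.11, -1.13 ± 0.11 and -0.46 ± 0.11 (adjusted p = 2.31e-05, 1.30e-04 and 0.0232), while the leukocyte marker PTPRC was below the floor on every array. Of the 11 markers 4 were tested, with 1 called higher and 2 lower in KATO-III, against 18.7% and 20.6% of all tested genes. COL1A1 went the other way there, at 51.4 and 67.1 on CD133+ arrays against 20.6 and 27.2, under the floor, on CD133- arrays. CD14 read 856 and 835 on CD133+ arrays of that line against 1202 and 1242 on its CD133- arrays. The summed intensity of the 11 markers was 955 to 1001 on CD133+ and 1401 to 1443 on CD133- arrays of KATO-III, 299 to 313 against 512 to 571 in SNU-216, and 1351 to 1459 against 1812 to 1849.8 in SNU-601, and their part in the result was not tested.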

How the data were processed

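CD133+ and CD133- cells of 3 gastric cancer lines were sorted by flow cytometry, and amplified RNA was hybridized to Illumina HT-12 v3 BeadChips, 2 arrays for each of 6 populations, grouped by their labels. The deposited table holds intensity values on a linear scale, which the authors had background-subtracted, quantile-normalized and reduced to 1 value per gene symbol; BeadStudio is named in the submitters' processing notes, and how probes were combined is not given in the sources used here. Of 34688 entries, 93 were empty, and 34595 were used. Values were set to a floor of 32.7 and log2-transformed, and genes above it on at least 2 arrays (20147) were tested. The log2 changes in the text were computed here from the deposited intensity.

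limma 3.58.1 (R 4.3.3) was used with a mean-variance trend and Benjamini-Hochberg adjustment over all tested genes at 0.05. Within-line differences, their interaction and line levels came from a fit of 6 population means (6 residual degrees of freedom), and the comparison over all lines from a fit with the line as a block (8 degrees of freedom). The floor, filter, scaling, trend, replicate block, random block, averaging and leaving out each array were varied. The scripts were tested on simulated data. The 50 genes and the lists beside them were chosen with earlier results of these data known. Values on all arrays are given for 34 of the 50 genes: those called over all lines, the 4 largest calls of each direction in a line with all 4 arrays above the floor, MCM2-7, PCNA, CDC6, CDT1, GMNN and RFC5; from other lists the 2 largest calls of each direction in a line were eligible, with PROM1, MKI67, CCNE2 and RRM2, and other named genes were chosen after their values were seen. Promoters came from the RefSeq table of GRCh38.p14. Depth does not apply to arrays, whose number limits the precision. Bead-level and slide information was not used here.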

Additional observations from a re-analysis of the deposited data

Results flagged for a closer look

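Of the 34 replication genes described by array, 22 had a CD133 difference that differed between the lines by the limma F-test of the interaction. The directions were opposed by call for CDT1 (adjusted p = 4.58e-06), POLD1 (3.38e-04), POLD2 (2.51e-04), TIMELESS (3.58e-04), CHAF1A (9.59e-05), ASF1B (1.37e-04) and NASP (2.22e-04). The change was largest in KATO-III for GMNN (8.53e-04), MCM4 (0.0128), MCM5 (0.00153), MCM6 (0.0223), CDC7 (0.00502), PRIM1 (7.79e-05), POLE2 (0.00577), PCNA (0.00483), RFC3 (0.00242), TIPIN (1.89e-04) and DTL (0.00106). It was largest in SNU-601 for CDC45L (0.0199), GINS2 (0.00635), GINS4 (0.0304) and POLA2 (8.09e-04). Each value in parentheses is an adjusted p. The 34 genes were chosen partly by their largest calls within a line, so their count cannot be set against all tested genes. Of all 49 replication genes tested, 28 passed the same test (57.1%), against 44.4% of all tested genes.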

How the results depend on the processing

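No median change or median level difference of the replication genes changed direction under any alternative. The same held for each called CD133 difference of a replication gene. Changes that were not called were not checked for direction. With only the 4 arrays of a line in its fit, which leaves few degrees of freedom, 8 replication genes were higher in CD133+ cells of SNU-216 and 1 in SNU-601. Over all lines 0 were called with the arrays of a population averaged (smallest adjusted p over all genes 0.796) and 0 with a random block for the population (consensus correlation 0.641). With an offset of 100 and no floor, which pulls low values together, the median change was 0.33 in KATO-III and 0.12 in SNU-601, and the level difference of SNU-601 was -0.55 from KATO-III and -0.60 from SNU-216. With arrays centered on their medians the KATO-III change was 0.44 and the level difference of SNU-601 from SNU-216 -0.74. The signal-to-noise ratio within each line, averaged over lines, was above 1 for 37 genes and below -1 for 2. Each SD in that ratio comes from 2 arrays, and the ratio was not computed over all genes. These counts therefore have no background to be read against. The cause of the shifts under centering was not tested.

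Leaving out 1 array at a time gave 28 to 34 higher and 4 to 5 lower genes in KATO-III, 15 to 22 and 4 in SNU-216, and 17 to 22 and 0 in SNU-601. Over all lines it gave 8 to 17 higher and 0 lower, the lowest without KATO-III CD133+ replicate 2, and 23 to 29 genes with an interaction. The level counts were 21 to 22 higher and 14 to 17 lower for SNU-216 against KATO-III, 4 and 37 to 38 for SNU-601 against KATO-III, and 4 to 5 and 36 to 38 for SNU-601 against SNU-216. The median changes were 0.36 to 0.43 in KATO-III, 0.18 to 0.25 in SNU-216 and 0.18 to 0.25 in SNU-601, and 0.27 to 0.32 over all lines, and the median level differences 0.042 to 0.13, -0.67 to -0.60 and -0.71 to -0.66. The median level difference of SNU-216 from KATO-III was 0.13 without SNU-216 CD133- replicate 2. Between 1 and 3 genes had a signal-to-noise ratio above 1 (3 without SNU-601 CD133+ replicate 1, 2 without its replicate 2) and 0 had one below -1. Of the calls within lines, 31 of 37 in KATO-III, 16 of 26 in SNU-216 and 17 of 21 in SNU-601 held in all 12 such fits.

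The labels number the arrays of each population 1 and 2. Deviations of arrays with the same number correlated at r = -0.012 to 0.028 over 15 pairs of populations, so no effect shared by arrays of the same number was seen. The correlations cannot show whether such arrays came from the same sort. With the replicate number as a block, 33, 22 and 21 genes were higher in the 3 lines and 15 over all lines. Genes near the floor, such as DBF4, GINS1 and CLSPN, are limited by signal over background.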
